A study of Mus musculus with 4 samples.

Results

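The HoxD region is a 2 Mb stretch of mouse chromosome 2, from 73600001 to 75600000 in build mm9, that holds the Hoxd genes and the gene-poor sequence on either side of them. Binding of Pitx1 was followed over 3 stretches of it, by the midpoint of each peak: a cluster stretch of 200 kb from 74450001 to 74650000, a telomeric desert of 950 kb after it and a centromeric desert of 850 kb before it. The region held 46 of 10274 replicated Pitx1 regions in the series, 3 in the cluster stretch, 31 in the telomeric desert and 12 in the centromeric desert. A replicated region is the union of peaks that overlap by at least 1 bp between the ChIP libraries. It also held 59 of 14753 peaks of replicate 1 and 92 of 25027 peaks of replicate 2. The stretches were set by coordinates and not by measured values, although they were chosen with earlier results of these data known.

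The series comprised 4 libraries, namely 2 Pitx1 ChIP-seq libraries and 2 of input chromatin. All came from embryonic hindlimb buds of the ICR strain, wild type in genotype and at stage E11.5, so no group carried an altered allele or a treatment. Material of 3 ChIPs entered the ChIP libraries, per the labels' protocols. ChIP-seq sequences the DNA fragments that an antibody pulls down with a protein, and a peak is a stretch with more fragments than background. Peaks had been called in each ChIP library on its own, the input libraries carried no peak list of their own, and no second condition was studied. Whether the replicates came from separate litters is not stated, so differences between them may be technical. The lists carry no read numbers, so the depth is unknown. The tissue label could not be checked, since the lists hold no expression values, and the number of cells bound at a site cannot be told apart from the amount bound per cell. Peak strength is the authors' own peak score, used as a rank within its list. A score percentile of 100 marks the strongest peak of a list.

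Pitx1 is a homeodomain transcription factor made in the hindlimb bud and not in the forelimb bud, and is known for its part in hindlimb identity. Hoxd9, Hoxd10, Hoxd11, Hoxd12 and Hoxd13 are neighbouring genes for homeodomain transcription factors that pattern the limb from its base to the digits, Hoxd13 being the gene best known for digit development. In limb buds the genes are known to respond to enhancers in both deserts, with those on the telomeric side acting in the early bud and the forearm and those on the centromeric side acting in the digits.

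In the gene order of RefSeq (GRCm38.p6), sorted by the lowest annotated coordinate of each gene, Atf2, Atp5g3 and Lnpk lie before the cluster. They encode a stress-responsive transcription factor, a subunit of the mitochondrial ATP synthase and a protein of the endoplasmic reticulum. The homeobox gene Evx2 follows, then Hoxd13, Hoxd12, Hoxd11, Hoxd10, Hoxd9, Hoxd8, Hoxd3, Hoxd4 and Hoxd1. After them come Mtx2, for a protein of mitochondrial import, then Hnrnpa3, for an RNA-binding protein, Nfe2l2, for the oxidative stress factor Nrf2, and Agps, for an enzyme of ether lipid synthesis. This table is of another build than the peaks, so no peak was placed on a gene, an exon or a promoter, and the stretches are named as the mm9 coordinates define them. Whether the outer genes of this order lie inside the 2 Mb was not checked either. An order by lowest coordinate need not be the order of promoters or coding parts. It therefore does not settle which of Hoxd3 and Hoxd4 comes first.

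The promoters of Hoxd13 and Hoxd9, the outer genes of the Hoxd9 to Hoxd13 group, are shown as the 250 bases before the gene start (RefSeq, GRCm38.p6, plus strand), since an mm9 genome, and with it the sequence of the peaks, was not used here. Capitals mark TAAT, or ATTA for the other strand, a core that many homeodomain proteins recognise. They lie at chr2:74667975-74668224 and chr2:74697513-74697762 of that build, which cannot be set against the mm9 peaks.
Hoxd13: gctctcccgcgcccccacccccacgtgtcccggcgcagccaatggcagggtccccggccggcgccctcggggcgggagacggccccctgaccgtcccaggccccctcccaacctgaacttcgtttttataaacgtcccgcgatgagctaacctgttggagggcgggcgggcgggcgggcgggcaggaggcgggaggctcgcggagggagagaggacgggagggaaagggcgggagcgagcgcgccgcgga
Hoxd9: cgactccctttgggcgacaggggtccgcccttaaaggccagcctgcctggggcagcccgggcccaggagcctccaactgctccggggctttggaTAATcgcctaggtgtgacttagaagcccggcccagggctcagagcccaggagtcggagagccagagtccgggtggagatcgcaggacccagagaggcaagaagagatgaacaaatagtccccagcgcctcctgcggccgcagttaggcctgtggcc
The Hoxd13 stretch held 0 such cores and the Hoxd9 stretch held 1. A core was present in 4 of 6 promoters of Hoxd9 to Hoxd13 and in the same 250 bases of 54.9% of all 32851 promoters in the table. The longer letters TAATCC, the sequence usually given for Pitx factors, were searched on both strands in the full windows of 300 bases. They were in 0 of 10 promoters of the 9 Hoxd genes and in 7.06% of all promoters. Absence from these windows says nothing about Pitx1 binding to the genes.

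The HoxD region was among the densest parts of the autosomes in replicated Pitx1 regions. It held 23.0 per Mb (95% exact Poisson interval 16.8 to 30.7), against 4.10 per Mb over the other 2466 Mb of autosomes. The ratio was 5.62, with an exact interval from the conditional binomial test of 4.11 to 7.50. Peaks of either library taken alone gave ratios of 5.02 (3.82 to 6.47) in replicate 1 and 4.61 (3.71 to 5.65) in replicate 2. The intervals count each peak as independent, which neighbouring peaks are not, so the region was also set beside 1221 other autosomal windows of 2 Mb. Of those, 1 held at least 46 replicated regions (0.0819%), and the median window held 7. The stretches of 2 Mb on either side were much sparser, with 11 replicated regions before the region and 13 after it, or 5.5 per Mb (2.75 to 9.84) and 6.5 per Mb (3.46 to 11.1).

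**Figure D1:**
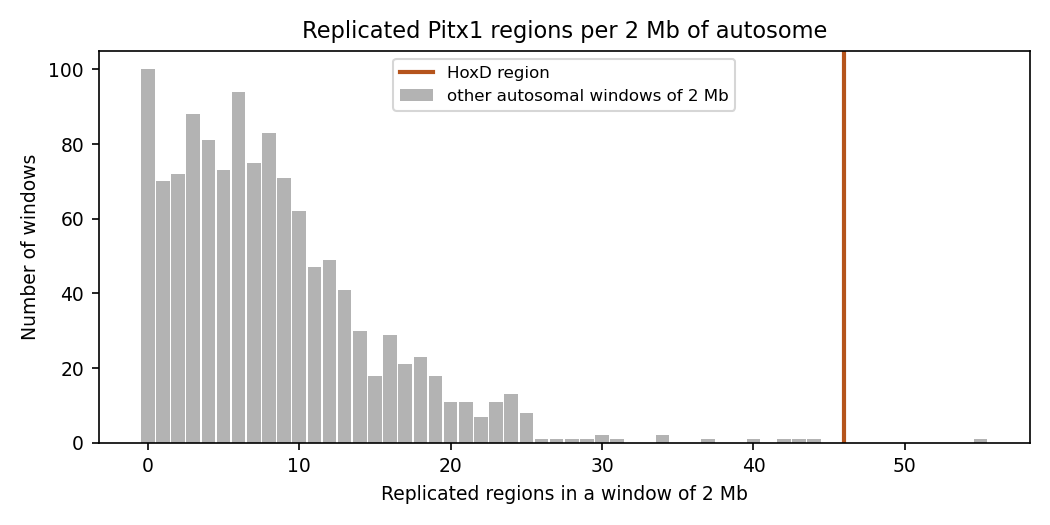
Number of other autosomal windows of 2 Mb (y axis) that hold a given number of replicated Pitx1 regions (x axis), with the HoxD region as a line. The HoxD region stood at 46, the median window at 7, and 1 of 1221 windows held more, at 55.

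The stretches differed in density. The telomeric desert had 32.6 replicated regions per Mb (22.2 to 46.3), which was 7.97 times the rate of the other autosomes (5.41 to 11.3). The cluster stretch had 15.0 per Mb (3.09 to 43.8), a ratio of 3.66 whose interval of 0.755 to 10.7 includes 1. The centromeric desert had 14.1 per Mb (7.29 to 24.7), a ratio of 3.45 (1.78 to 6.02). The telomeric desert was denser than the centromeric desert by 2.31 times (1.15 to 4.94). It was denser than the centromeric desert in the single lists as well, at 2.13 times (1.16 to 4.08) in replicate 1 and 1.69 times (1.03 to 2.83) in replicate 2. The replicated regions are made of peaks from these lists, so the lists are not separate support. These intervals also count neighbouring peaks as independent, and no windows were compared for the ratio between the deserts. In point estimates, the cluster stretch ranked differently between the lists. It had 0.46 times the telomeric rate of replicated regions (0.0899 to 1.47) and 1.06 times the centromeric rate (0.192 to 3.94), and in replicate 1 peaks 0.625 times (0.192 to 1.59) and 1.33 times (0.381 to 3.79). In replicate 2 peaks it was the densest stretch, at 1.65 times the telomeric rate (0.89 to 2.91) and 2.78 times the centromeric rate (1.41 to 5.32), and of these 6 ratios only the last has an interval without 1. Among windows as long as each stretch, 1 of 2586 matched the telomeric desert (0.0387%), 1165 of 12319 the cluster stretch (9.46%) and 120 of 2891 the centromeric desert (4.15%). With only bins of 100 kb that hold a peak counted as length, the ratios were 4.01 (2.72 to 5.70) for the telomeric desert, 1.94 (0.400 to 5.67) for the cluster stretch, 1.94 (1.00 to 3.39) for the centromeric desert and 2.98 (2.18 to 3.97) for the whole region. Among the stronger 50% of peaks in either list the centromeric ratio was 1.61, with an interval of 0.332 to 4.71 that includes 1, and the telomeric desert was 5.96 times as dense as the centromeric one (1.77 to 31.3).

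**Figure D2:**
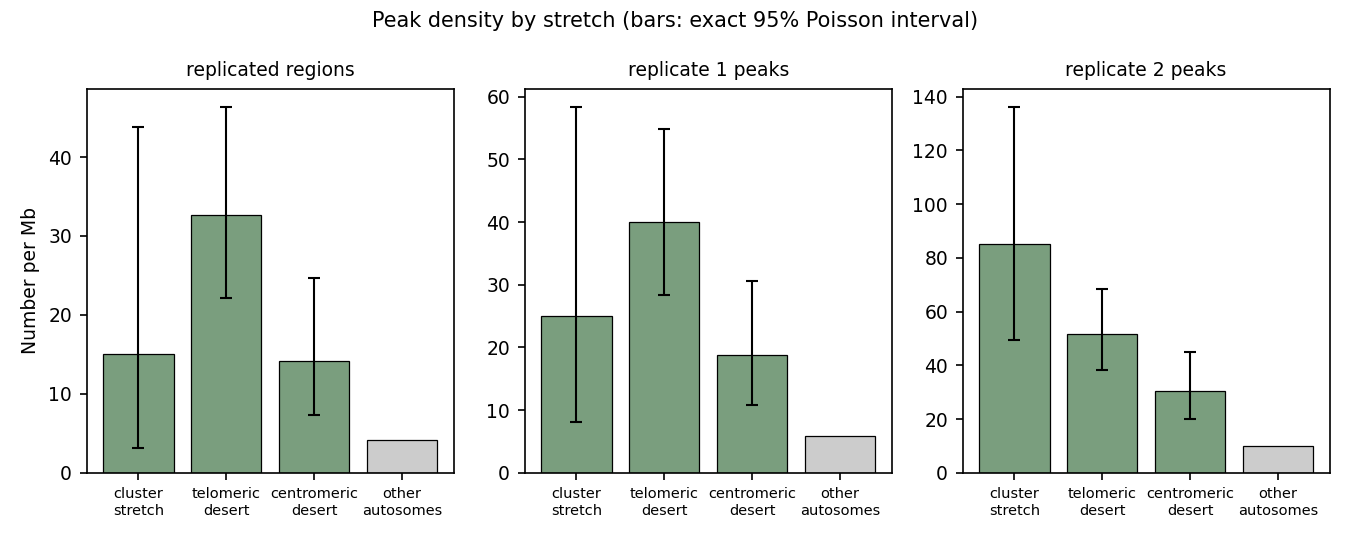
Replicated regions, replicate 1 peaks and replicate 2 peaks per Mb (y axis) in the cluster stretch, the telomeric desert, the centromeric desert and the other autosomes, with exact 95% Poisson intervals as bars. Every stretch stood above the grey autosomal bar in each list, and the cluster stretch was at 15.0, 25 and 85.0 per Mb. For its 3 replicated regions the interval, 3.09 to 43.8 per Mb, includes the autosomal rate of 4.10.

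Most replicate 1 peaks of the region, and just over 50% of its replicate 2 peaks, recurred in the other library. In replicate 1, 46 of 59 peaks were shared (78.0%, 95% Wilson interval 65.9 to 86.6%), against a background of 69.9% of all autosomal peaks of that list. In replicate 2, 50 of 92 were shared (54.3%, 44.2 to 64.1%), against a background of 42.6%. The replicate 1 interval includes its background and the replicate 2 interval does not, although it did so with every other definition of a shared peak or score threshold that was run. Strong peaks are shared more often than weak ones, so the autosomal share of each score decile was also applied to these peaks. That gave 69.6% for replicate 1 and 48.3% for replicate 2, and the replicate 2 value lies inside the interval. By stretch, 34 of 49 replicate 2 peaks of the telomeric desert were shared (69.4%, 55.5 to 80.5%), 4 of 17 in the cluster stretch (23.5%, 9.56 to 47.3%) and 12 of 26 in the centromeric desert (46.2%, 28.8 to 64.5%). The score deciles gave 53.9% for the telomeric desert, below its interval, and 38.5% for the cluster stretch and 44.4% for the centromeric desert, both inside theirs. In replicate 1, 31 of 38 telomeric peaks were shared (81.6%, 66.6 to 90.8%). The background of 69.9% and the decile share of 73.5% both lie inside that interval. Shares by stretch were not run with the other definitions of a shared peak.

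In the cluster stretch, Pitx1 peaks were denser than on the other autosomes in both libraries. Replicate 2 had 17 peaks there, or 85.0 per Mb (49.5 to 136), which was 8.51 times its rate on the other autosomes (4.96 to 13.6), and 19 of 12319 windows of 200 kb held as many (0.154%). Replicate 1 had 5 peaks, or 25 per Mb (8.12 to 58.3), a ratio of 4.25 (1.38 to 9.92), and 600 of 12319 windows held as many (4.87%). There were 3.4 replicate 2 peaks for each replicate 1 peak (exact interval 1.20 to 11.8), against 1.7 on the other autosomes, which lies inside the interval, so no difference between the libraries beyond their overall numbers was detectable. All 5 replicate 1 peaks fell within 65.8 kb, from 74507323 to 74573101, and 16 of the 17 replicate 2 peaks within 69.1 kb, from 74509836 to 74578968. The bin of 100 kb that contains them held 16 replicate 2 peaks, the most of the 20 such bins in the HoxD region. That number was reached by 5 of 24648 other autosomal bins. The bin was picked by its own count, so this is a description and no test.

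The 3 replicated regions of the cluster stretch lay within those kilobases. The first, from 74526516 to 74528540, scored 97.3 in replicate 1 (rank 5641) and 153 in replicate 2 (rank 6113), where 2 adjacent peaks made it up. The second, from 74536613 to 74537503, scored 56.0 in replicate 1 (rank 12692) and 223 in replicate 2 (rank 3528). The third, from 74572536 to 74573101, scored 50.95 in replicate 1 (rank 14414) and 539 in replicate 2 (rank 740). The third was thus near the foot of the replicate 1 list, at percentile 2.30, and near the top of the replicate 2 list, at percentile 97.0. Its difference of 94.7 percentile points was the widest of the 46 regions. Differences above 50 points in favour of replicate 2 were seen in 2 of these 3 regions, against 8.55% of autosomal replicated regions. They were also seen in 3 of 12 centromeric regions and in 1 of 31 telomeric regions.

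Of the unshared peaks in the cluster stretch, both in replicate 1 and 7 of 13 in replicate 2 lay within 5 kb of a peak of the other library, against 19.5% and 15.1% of unshared autosomal peaks. Peaks are denser here, and the part of that density in these counts was not tested. The strongest in replicate 2 ran from 74521087 to 74521770 with a score of 321 (rank 2000), 2.34 kb from the nearest replicate 1 peak. The next ran from 74535250 to 74536077 with a score of 127, 0.535 kb from one. In replicate 1 the unshared peaks ran from 74507323 to 74508636 (score 62.3) and from 74524112 to 74525326 (score 55.1), 1.20 and 1.19 kb from a replicate 2 peak. The 13 unshared replicate 2 peaks had a median score of 68.6, and 11 of all 17 fell below the median of their list. A weak replicate 2 peak from 74455848 to 74456277, with a score of 50.92, lay 6.06 kb inside the start of the stretch and was not shared. Outside the dense part, no replicated region was found for 180 kb across the start of the stretch (74346953 to 74526515) and for 159 kb across its end (74573102 to 74731737). Gaps at least that long made up 32.9% and 35.9% of autosomal gaps.

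**Figure D3:**
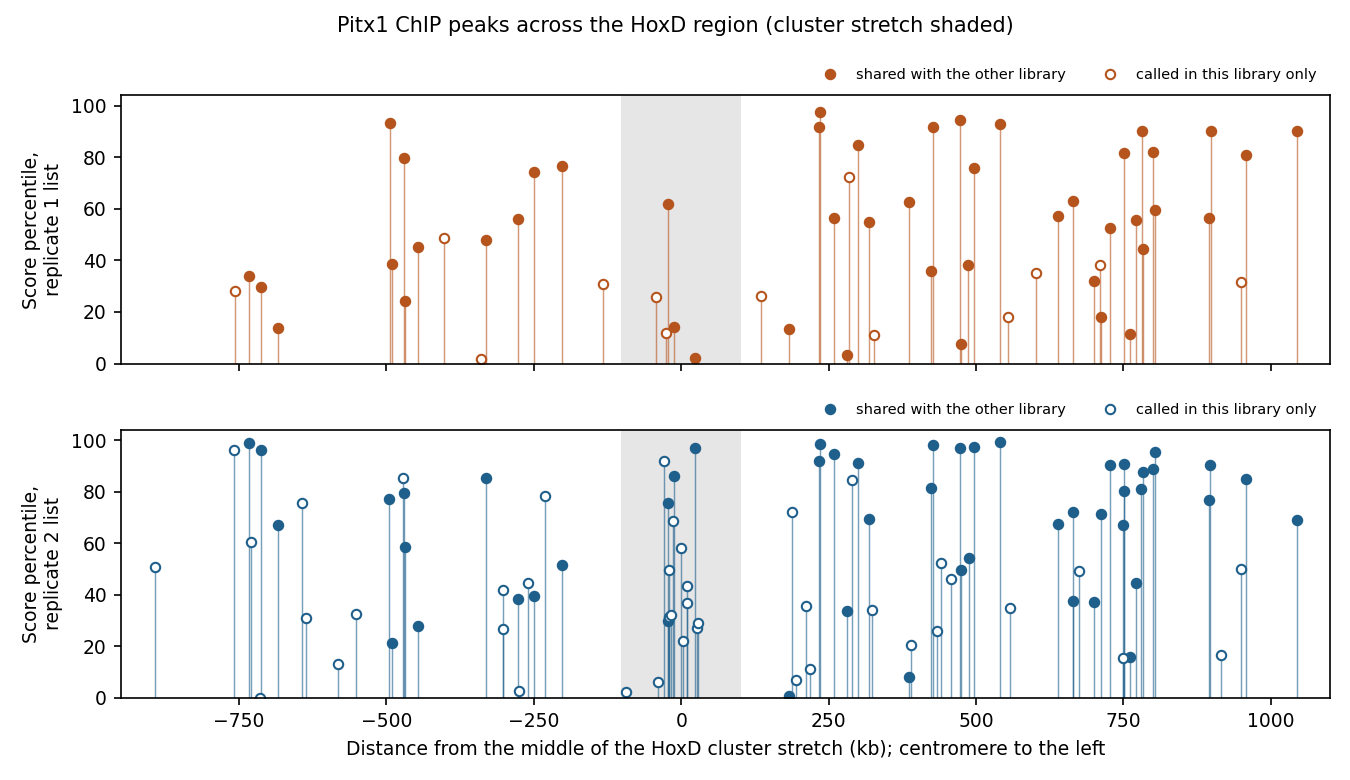
Each peak of the HoxD region by its distance in kb from the middle of the cluster stretch (x axis, cluster stretch shaded) and its score percentile (y axis) in replicate 1 (top) and replicate 2 (bottom). Filled points overlap a peak of the other library: 46 of 59 in replicate 1 and 50 of 92 in replicate 2, with 17 replicate 2 peaks and 5 replicate 1 peaks in the shaded part.

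The telomeric desert held 31 replicated regions, and the strongest of the HoxD region in both libraries were there. In 6 of them both peaks were in the highest score decile of their list, 19.4% against 10.6% of all autosomal replicated regions, a difference that was not tested. The cluster stretch and the centromeric desert had 0 of 3 and 0 of 12 such regions. A region from 74785049 to 74785916 scored 428 in replicate 1 (rank 338) and 758 in replicate 2 (rank 346). It had a close neighbour from 74783054 to 74784012, with scores of 246 and 319. A region from 75090554 to 75091458 scored 264 in replicate 1 (rank 1028) and 915 in replicate 2 (rank 207), the highest replicate 2 score of the HoxD region. Both libraries thus placed these regions among their strong peaks. The other 3 were from 74976011 to 74977072 (scores 241 and 684), from 75021064 to 75022025 (301 and 522) and from 75446977 to 75448054 (221 and 286).

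A further 6 telomeric regions reached the highest decile in replicate 2 only. The strongest were from 75046259 to 75047959 (130.4 in replicate 1 and 574 in replicate 2), from 75353185 to 75354696 (93.3 and 434) and from 74808393 to 74809442 (88.6 and 395). The others were from 74849392 to 74850644 (172 and 299), from 75299175 to 75301720 (154 and 294) and from 75277563 to 75278353 (84.2 and 283). The one at 75299175 was the widest replicated region here, 2546 bp long, and was called as 3 peaks in replicate 2 and as 1 in replicate 1. In 2 regions only the replicate 1 peak reached the highest decile, from 75330011 to 75331090 (222 and 184) and from 75594778 to 75595973 (222 and 128). The last of these lay 4.62 kb inside the end of the 2 Mb.

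The other telomeric regions reached the highest decile in neither library. In 5 of them both peaks were below the median of their list, namely from 74731738 to 74732616 (55.7 in replicate 1 and 50.29 in replicate 2), from 74831717 to 74832444 (51.4 and 70.2), from 75024060 to 75024716 (53.2 and 86.9), from 75250116 to 75250679 (66.0 and 72.9) and from 75310475 to 75311148 (54.7 and 57.2). In the remaining 12 at least 1 peak was above the median of its list, as in the region from 75350568, at percentiles 82.2 in replicate 1 and 88.9 in replicate 2. Of these 12, 4 had the highest replicate 2 scores, from 74972405 to 74973641 (68.7 and 186), from 75332374 to 75333138 (75.8 and 245), from 75350568 to 75351479 (157 and 261) and from 75507395 to 75508763 (150.06 and 213). Another 6 were stronger by percentile in replicate 2 with lower scores, from 74867186 to 74867868 (86.9 and 129.8), from 75036835 to 75038030 (70.4 and 93.9), from 75188844 to 75189461 (90.2 and 124), from 75214085 to 75215272 (99.5 and 139.6), from 75261713 to 75262575 (58.2 and 136) and from 75445888 to 75446909 (88.9 and 158). The last 2, from 74936638 to 74937334 (98.4 and 53.6) and from 75321069 to 75321894 (87.5 and 80.5), had the higher percentile in replicate 1.

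By the median gap, replicated regions were closer together in the HoxD region than on the autosomes. The densest of the 20 bins of 100 kb lay in the telomeric desert, from 75300001 to 75400000, and had 7 replicated regions. At least as many were in 17 of 24648 other autosomal bins (0.0690%). The bin was picked by its own count, so that share is a description and no test. In the HoxD region as a whole 5 of 20 bins had no replicated region (25%), against 72.9% of autosomal bins. The median gap between neighbouring regions was 20.8 kb (quartiles 8.75 and 46.1 kb), against 87.9 kb on the autosomes (25.7 and 257 kb). Midpoints were under 10 kb apart in 11 of 45 neighbouring pairs of the HoxD region, and 1 run of 3 regions spaced in this way ran from 75321069 to 75333138. Such pairs and runs were not counted on the autosomes, so whether these numbers are unusual cannot be told. The longest telomeric gaps were 97.4 kb from 75091459 to 75188843 and 91.2 kb from 75354697 to 75445887.

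Unshared telomeric peaks had median scores of 65.6 in replicate 1 and 71.3 in replicate 2. In replicate 1 there were 7, the strongest from 74833791 to 74834656 (score 120.1, 1.48 kb from a replicate 2 peak) and from 75260536 to 75261466 (score 70.3, 0.377 kb from one). In replicate 2 there were 15, the strongest from 74838282 to 74838801 (score 209.8, 3.62 kb from a replicate 1 peak) and from 74738078 to 74738621 (score 139, 5.61 kb from one). Over the whole HoxD region, a peak of the other library was within 5 kb for 8 of 13 unshared peaks in replicate 1 (61.5%) and for 18 of 42 in replicate 2 (42.9%), against the same autosomal shares, 19.5% and 15.1%. Peaks are denser across the region than on the autosomes, and the part of that density in these shares was not tested.

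The centromeric desert had 12 replicated regions, none with both peaks in the highest decile, and the libraries ranked the strongest of them differently. The strongest in replicate 2 was from 73815372 to 73816689, with 67.6 in replicate 1 (rank 9722) and 773 in replicate 2 (rank 327). The next was from 73836571 to 73837788, with 64.5 (rank 10405) and 484 (rank 927). The strongest in replicate 1 was from 74054855 to 74056149, with 266 in replicate 1 (rank 1005) and 160.4 in replicate 2 (rank 5742). Regions near the start of the desert thus stood high in replicate 2 and low in replicate 1, and those from 74273068 on were the stronger by percentile in replicate 1.

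Of the remaining 9 centromeric regions, 4 were stronger by percentile in replicate 1 and above the median of that list. They were from 74299011 to 74300200 (126 and 75.4), from 74346312 to 74346952 (133 and 89.7), from 74273068 to 74273654 (88.0 and 74.2) and from 74078646 to 74079579 (146 and 174), the last by less than 1 percentile point. In 3 the replicate 2 percentile was the higher, from 74218521 to 74219672 (79.5 and 216), from 73865427 to 73866323 (56.0 and 122) and from 74081696 to 74082411 (61.25 and 102). Both peaks were below the list medians in 2 regions, from 74102944 to 74104630 (76.5 and 65.4) and from 74058186 to 74058903 (70.9 and 60.55). In total 5 of 12 had the higher percentile in replicate 2, against 25 of 31 in the telomeric desert and 65.5% of all autosomal regions.

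The centromeric desert also held the strongest unshared peak of the HoxD region. It ran from 73790436 to 73791471 in replicate 2, with a score of 484 (rank 931), and a replicate 1 peak from 73792357 to 73792966 with a score of 63.73 lay 0.885 kb away without touching it. The next, from 74077488 to 74078268, scored 215 in replicate 2, 0.377 kb from a replicate 1 peak. In replicate 1 the strongest unshared peaks were from 74147080 to 74148207 (score 80.1) and from 74416702 to 74417309 (score 65.15), and lay 43.5 and 38.5 kb from any replicate 2 peak. The longest gap between replicated regions in the 2 Mb was here, 189 kb from 73866324 to 74054854, which 31.9% of autosomal gaps match or exceed.

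Taking the 46 replicated regions as a group, they were about as strong as those elsewhere. The median score percentile, averaged over both libraries, was 66.3 in the HoxD region and 64.6 on the autosomes. By library the medians were 56.4 in replicate 1 and 78.3 in replicate 2, against 62.1 and 74.7. The telomeric desert had a median of 71.4, the cluster stretch 49.9 and the centromeric desert 59.9. Percentiles of the libraries were related with a Spearman's rho of 0.435 across the 46 regions and 0.559 across all 10145 autosomal regions, as a description of peaks that share their libraries. The regions had a median width of 946 bp (564 to 2546 bp), against 863 bp. In 3 of 46 more than 1 replicate 2 peak fell together (6.52%, against 3.64%).

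**Figure D4:**
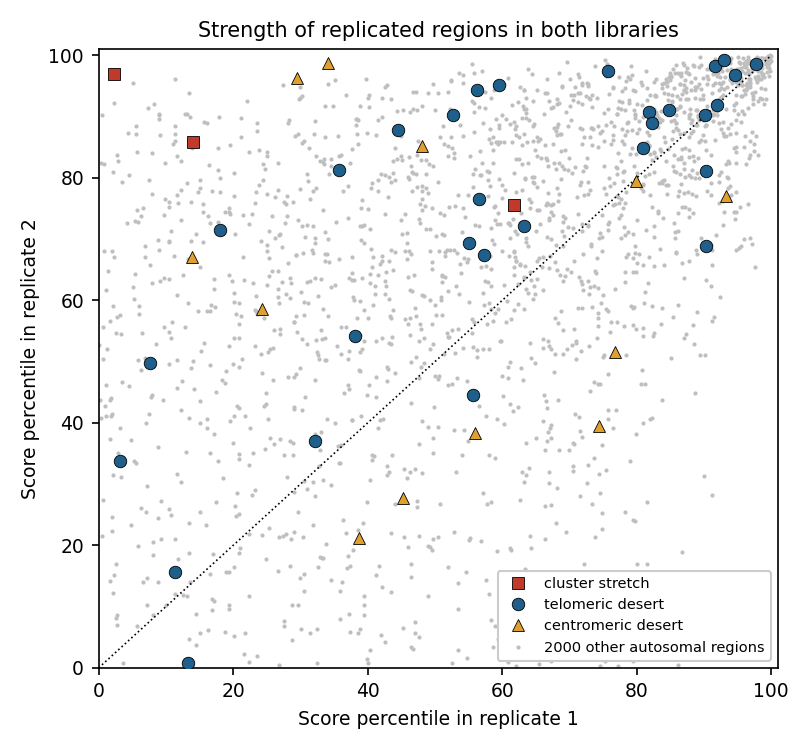
Score percentile in replicate 1 (x axis) against that in replicate 2 (y axis) for each replicated region of the cluster stretch, the telomeric desert and the centromeric desert, with 2000 other autosomal regions in grey and the line of equal percentiles dotted. Of the 31 telomeric points 25 lie above the line, and 2 of the 3 cluster points lie at its far left, at 2.30 and 14.0 in replicate 1.

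The authors' further list of single positions had 50 entries in the HoxD region, 4 in the cluster stretch, 34 in the telomeric desert and 12 in the centromeric desert. Each of the 50 shared replicate 2 peaks contained a position, and 48 of the 50 positions also lay inside a replicate 1 peak. Every replicated region described above was therefore represented in that list. In each stretch the number of positions equalled the number of shared replicate 2 peaks. The list may thus have been made from the same peaks, and it is not separate support for the regions.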

How the data were processed

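Pitx1 ChIP-seq peaks of 2 libraries were used. The submitters' processing notes name build mm9 and, with no role or order, MACS 1.4.2, Bowtie 0.12.8, bedtools 2.16.2 and CASAVA in versions 1.7 and 1.8.2. No source used here gives the settings of the caller or says whether it used the input. The score is the deposited value of the authors' caller for each peak, with no header, and was used for ranks within a list. How the authors made the list of single positions is not given either.

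Peaks were assigned by midpoint, and autosomal length was counted to the last peak of each of 19 chromosomes. Rates were compared by exact conditional binomial intervals and by windows of equal length, and shares by Wilson intervals, all at 95%. These cover counting error only. Positions are mm9, counted from 1. The step was tested on simulated lists whose sites were placed independently. That test cannot show how the intervals behave for clustered peaks such as these. Computation was in Python 3.11.15 with scipy 1.17.1, numpy 2.4.6 and pandas 2.3.3, and plots were made in matplotlib 3.10.9.

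The region, its stretches and the lists were chosen with earlier results of these data known. The rule for named items was every replicated region, the 2 strongest unshared peaks of each library per stretch, and peaks within 20 kb of a boundary. Ranks are printed only for the leading regions, and peak widths per library are not printed. RefSeq (GRCm38.p6) gave gene order and promoters. All 17 genes named in the report matched, and no position was converted between builds. Alternatives were other score thresholds, definitions of a shared peak, boundaries, lengths and single libraries.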

Additional observations from a re-analysis of the deposited data

How the results depend on the processing

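No paired analysis was possible because no peak list of the input, whose libraries carry the same numbers, was analysed here. The ratios to the other autosomes kept their direction and their side of 1 for the whole region and the telomeric desert under every alternative run, and so did the ratio of the telomeric to the centromeric desert. The lowest were 2.98 for the region and 4.01 for the telomeric desert, both when only bins of 100 kb with at least 1 peak counted as length. The centromeric desert had a ratio of 1.61 (0.332 to 4.71) in the best 50% of each list and 2.08 (0.252 to 7.53) in the best 25%, where the interval included 1 and fewer peaks were left. The cluster stretch had 0 replicated regions in the best 25%, a ratio of 0 (0 to 16.3), and a ratio of 7.32 (1.51 to 21.4) when its borders were moved in by 50 kb. In single libraries, when either replicate was left out, its ratio was 4.25 to 8.51, with intervals above 1 both times. Sharing of replicate 1 peaks was 62.7% with reciprocal overlap of 50% (autosomes 57.7%) and again with equal numbers of best peaks (57.5%). Sharing of replicate 2 peaks was 40.2% with reciprocal overlap (autosomes 34.0%), 42.4% with midpoints within 250 bp (38.3%) and 67.2% with equal numbers (58.5%); the cause was not tested. The longest gap was 153 to 189 kb in single libraries, when either replicate was left out. With window starts moved by 1.5 Mb, an alternative chosen after seeing the data, 0 of 1208 windows held as many replicated regions as the HoxD region, and with shifts of 0.5 and 1 Mb it was 1. What was called in 1 library alone cannot be judged further without read depth.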
